A study of Homo sapiens with 12 samples.

Results

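A set of 7 genes chosen as gained in the invasive breast line MCFCA1 is described here: PPP1R1B, ATG9B, RNF212, CDH19, PRSS21, MYEF2 and LZTS1, out of 29744 gene rows. They were chosen from these same counts, as rows near 0 in A10 or T1 and expressed in CA1, with no numeric limit stated. Their levels in A10, T1 and CA1 are therefore a description with no test, and no comparison between lines is tested for them. NeoT was not used in the choice, but each comparison with it has A10, T1 or CA1 on its other side. All 7 had a row and passed the filter on low counts, 5 of them also without the CA1 libraries. ATG9B and CDH19 did not pass without CA1.

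The study sequenced RNA of 4 related human mammary epithelial lines, each with 3 libraries labelled as biological replicates. A10 is MCF10A, an immortalised mammary epithelial line that forms no tumours. NeoT is MCFNeoT, named benign hyperplasia by the submitters and made from MCF10A with a mutant HRAS. T1 is MCFT1 (atypical hyperplasia) and CA1 is MCFCA1 (invasive cancer), both descended from the HRAS line through growth as xenografts. The submitters call all 4 triple-negative lines, and no treatment is given. RNA came from a workflow that also yields DNA and peptides. The labels do not say how the biological replicates were separated, so p-values measure the spread between these libraries.

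Not all 7 were gained relative to the parent line. PPP1R1B, ATG9B, RNF212 and CDH19 had at most 1 count over the 3 A10 libraries, and were gained relative to the parent line. PRSS21, MYEF2 and LZTS1 were expressed in A10 and in CA1 and had 0 counts in every NeoT and T1 library. They are called here the genes silent in NeoT and T1.

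The genes have unrelated roles. PPP1R1B encodes a small protein that inhibits protein phosphatase 1 once protein kinase A has phosphorylated it, and is best known from dopamine-responsive neurons of the striatum. ATG9B is the paralog of ATG9A, a membrane protein that moves lipids during autophagosome formation. RNF212 encodes a RING-finger protein needed for meiotic crossovers. CDH19 is a type II cadherin known from Schwann cell precursors. PRSS21 (testisin) is a membrane-anchored serine protease of the testis. MYEF2 binds nucleic acid and represses the myelin basic protein gene in mouse. LZTS1, a leucine-zipper protein, is a candidate tumour suppressor that acts on the cell cycle.

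Promoter sequences from RefSeq (GRCh38.p14) were matched for 4 of the 7. They are shown to compare 3 genes gained relative to A10 (ATG9B, RNF212 and CDH19) with 1 of the genes silent in NeoT and T1 (PRSS21). The 250 bases before the start used by the promoter table are written 5′ to 3′ on the gene's strand, with CpG dinucleotides in capitals. For RNF212 that start lies inside the gene's annotated span, and only the 104 bases outside the span are printed; the other 146 are not.
ATG9B (chr7:151024500-151024749): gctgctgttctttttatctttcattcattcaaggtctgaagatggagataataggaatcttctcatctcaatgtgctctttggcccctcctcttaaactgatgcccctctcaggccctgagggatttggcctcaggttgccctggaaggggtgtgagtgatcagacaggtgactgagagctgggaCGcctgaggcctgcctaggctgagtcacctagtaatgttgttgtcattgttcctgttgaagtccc
RNF212 (chr4:1113711-1113814): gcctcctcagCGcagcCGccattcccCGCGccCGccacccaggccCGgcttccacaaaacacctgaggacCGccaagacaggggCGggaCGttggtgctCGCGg
CDH19 (chr18:66604091-66604340): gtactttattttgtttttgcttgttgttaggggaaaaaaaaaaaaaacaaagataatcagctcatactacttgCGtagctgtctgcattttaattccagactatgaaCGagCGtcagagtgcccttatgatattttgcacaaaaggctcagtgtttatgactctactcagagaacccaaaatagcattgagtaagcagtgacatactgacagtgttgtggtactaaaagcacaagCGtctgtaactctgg
PRSS21 (chr16:2816987-2817236): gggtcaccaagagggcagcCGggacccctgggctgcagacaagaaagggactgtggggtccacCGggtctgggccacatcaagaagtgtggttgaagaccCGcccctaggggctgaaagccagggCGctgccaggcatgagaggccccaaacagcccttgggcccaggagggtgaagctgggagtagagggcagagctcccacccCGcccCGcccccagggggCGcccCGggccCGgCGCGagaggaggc
The 4 promoters did not share a CpG content over the full 250 bases. RNF212 held 29 CpG dinucleotides at 71.6% G+C, PRSS21 held 11 at 70.4%, CDH19 held 4 at 38.0%, and ATG9B held 1 at 50%. Over 35115 promoters of the same length the median was 11 CpG dinucleotides (quartiles 3 and 23), and 85.9% of promoters held fewer than RNF212, against 6.06% with fewer than ATG9B. Both strands were searched for 4 motifs. TGANTCA (AP-1) was present in ATG9B only, beside 6.57% of all promoters, CANNTG (E-box) in ATG9B and RNF212, beside 61.8%, and neither TGACGTCA (CRE, 1.65%) nor TATAAA (a core promoter box, 10.7%) in any of the 4.

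Levels are given in CPM, counts scaled for library size with TMM factors. They are compared between lines for the same gene or the same summed list, since they are not divided by length. Sums over a list weigh its longer and more abundant genes more. Library totals ran from 18032404 to 35730417 counts. A count of 0 over a line's 3 libraries allows a level of up to 3 counts, which is 0.0326 CPM for A10, 0.0474 for NeoT, 0.0356 for T1 and 0.0463 for CA1. Folds against such a line are lower bounds. Floors and counting intervals cover counting error only, and in bulk RNA fewer expressing cells cannot be told apart from less RNA per cell. T1 replicate 1 stood apart with 7.76% of counts in 4 cytoplasmic rRNA rows, against 0.954% to 2.18% in the other 11 libraries, and NeoT replicate 3 had the fewest counts. HRAS, the gene the derived lines carry in mutant form, had means of 64.5 ± 4.59 (A10), 239 ± 21.7 (NeoT), 158 ± 11.9 (T1) and 302 ± 11.9 CPM (CA1; SD, n = 3). The counts do not separate mutant from normal HRAS. Mammary epithelial markers summed to 7552 to 8160 CPM in A10 and 2558 to 2653 in NeoT. They summed to 9580 to 10022 CPM in T1 and 14123 to 14915 in CA1. By the test, 9 of the 12 were lower and 2 higher in NeoT than in A10, beside 36.7% and 33.7% of all tested genes. The 2 called higher were KRT8 and LAMB3 (log2 fold changes 1.68 and 0.28). PGR had no count in any library, and ERBB2 averaged 202 ± 11.1 CPM in CA1.

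PPP1R1B was high in CA1 alone. It stood at 0 counts in all 3 A10 libraries, at 1, 0 and 0 counts in NeoT, at 2.38, 2.91 and 2.00 CPM in T1 and at 100, 113 and 110 CPM in CA1. The 4 lines fell into 3 tiers with no overlap between them: A10 with NeoT at or near 0, T1 low, and CA1 high. CA1 averaged 108 ± 6.73 CPM and T1 2.43 ± 0.456 CPM (SD, n = 3 each), a ratio of 44.3, and CA1 was at least 3321-fold above the floor of A10.

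RNF212 had the same order of lines. It had 0 counts in every A10 and NeoT library, 1.89, 2.82 and 2.98 CPM in T1 and 13.6, 17.5 and 17.6 CPM in CA1. T1 was again an intermediate level, at 15.8% of the CA1 mean, a higher share than the 2.26% of PPP1R1B. CA1 averaged 16.3 ± 2.27 CPM and T1 2.56 ± 0.592 CPM (SD, n = 3 each), a ratio of 6.34, and CA1 was at least 505-fold above the floor of A10.

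CDH19 was close to 0 outside CA1. A10 libraries had 0, 1 and 0 counts, NeoT had 0 in all 3, T1 had 3, 5 and 18 counts, and CA1 had 27.6, 29.7 and 31.0 CPM. The T1 libraries were uneven, with 0.736 CPM in replicate 3 and 0.107 and 0.158 CPM in the others. Relative to T1, at 0.334 ± 0.349 CPM, CA1, at 29.5 ± 1.68 CPM (SD, n = 3 each), was 88.3-fold higher, and relative to A10 the ratio of pooled counts was 2723 (95% exact counting interval 488 to 107603).

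ATG9B had traces in NeoT and T1. A10 libraries had 0 counts, NeoT libraries 4, 8 and 1 counts, T1 libraries 1, 7 and 14 counts, and CA1 libraries 20.1, 15.2 and 16.6 CPM. The ranges of NeoT and T1 overlapped and these lines cannot be ordered, while every CA1 library lay above every other library. CA1 averaged 17.3 ± 2.55 CPM and T1 0.277 ± 0.273 CPM (SD, n = 3 each), a ratio of 62.5, and CA1 was at least 522-fold above the floor of A10.

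PRSS21 was present at both ends of the series. It stood at 8.57, 9.0 and 9.65 CPM in A10, at 0 counts in all 6 NeoT and T1 libraries and at 21.9, 22.0 and 24.6 CPM in CA1. All A10 libraries lay below all CA1 libraries. CA1 averaged 22.8 ± 1.5 CPM and A10 9.07 ± 0.542 CPM (SD, n = 3 each), a ratio of 2.52, and CA1 was at least 643-fold above the floor of T1.

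MYEF2 differed least between CA1 and A10. It had 6.06, 6.26 and 5.67 CPM in A10, 0 counts in all 6 NeoT and T1 libraries and 10.9, 9.07 and 11.7 CPM in CA1. The A10 and CA1 ranges did not overlap, but A10 stood at 56.8% of the CA1 mean. CA1 averaged 10.6 ± 1.36 CPM and A10 5.99 ± 0.297 CPM (SD, n = 3 each), a ratio of 1.76, and CA1 was at least 296-fold above the floor of T1.

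LZTS1 had 1.66, 2.13 and 2.67 CPM in A10, 0 counts in all 6 NeoT and T1 libraries and 10.3, 10.1 and 11.1 CPM in CA1. Its A10 level was 20.5% of the CA1 mean, a smaller share than for PRSS21 (39.7%) or MYEF2. CA1 averaged 10.5 ± 0.553 CPM and A10 2.15 ± 0.508 CPM (SD, n = 3 each), a ratio of 4.89, and CA1 was at least 296-fold above the floor of T1.

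**Figure D1:**
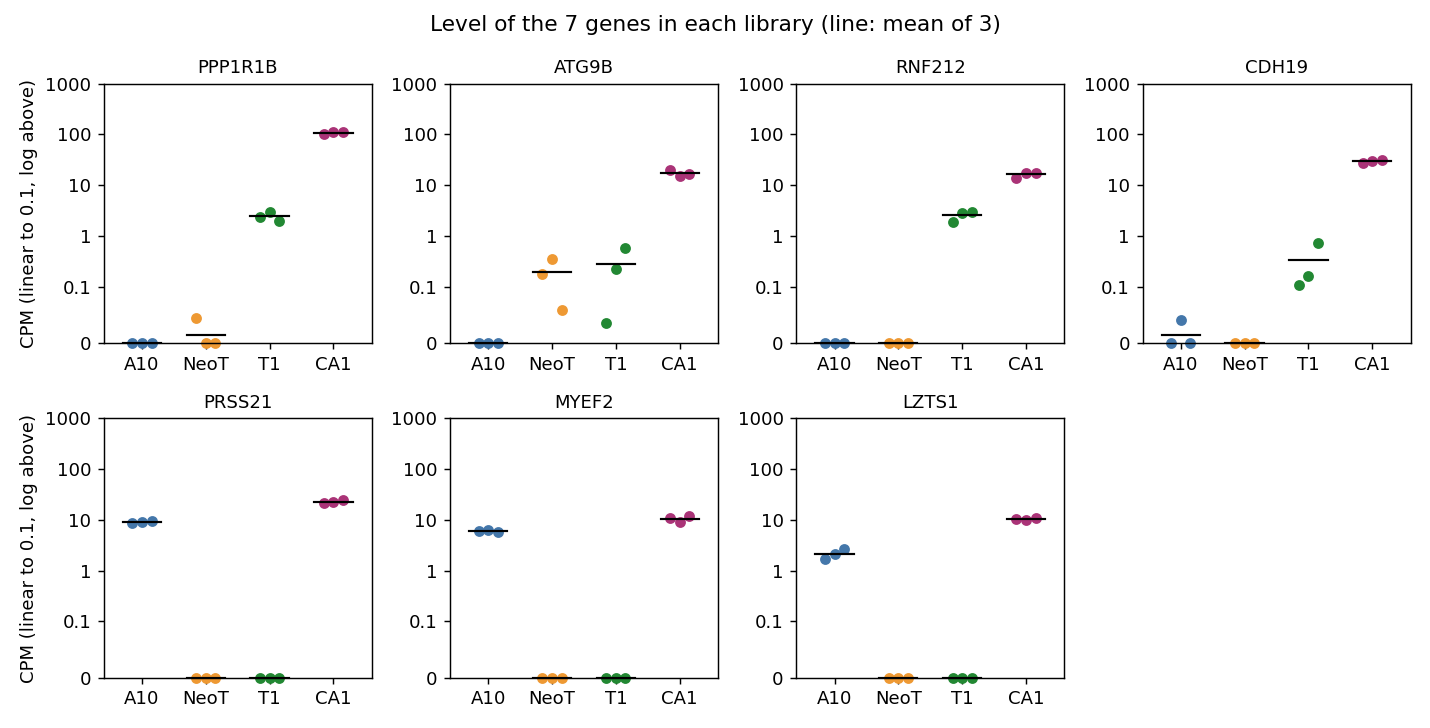
Level of each of the 7 genes in the 12 libraries, as CPM on an axis that is linear up to 0.1 and logarithmic above, with a bar at the mean of the 3 libraries of a line. PPP1R1B and RNF212 step up through T1 to CA1, and CDH19 and ATG9B are near 0 outside CA1. PRSS21, MYEF2 and LZTS1 are at 0 in NeoT and T1 and present in A10 and CA1.

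**Figure D2:**
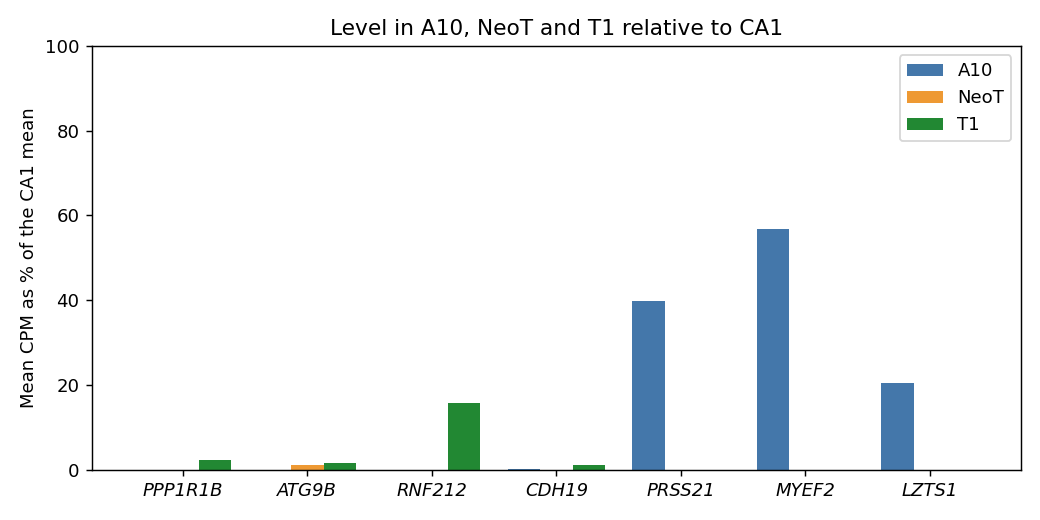
Mean CPM of each gene in A10, NeoT and T1 as a percent of its CA1 mean, on a linear axis from 0. The first 4 genes have T1 as their highest line below CA1, from 1.13% (CDH19) to 15.8% (RNF212), and the last 3 have A10, from 20.5% (LZTS1) to 56.8% (MYEF2).

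NeoT, the HRAS line, played no part in the choice. All 7 were at or near 0 there: RNF212, CDH19, PRSS21, MYEF2 and LZTS1 had 0 counts in every NeoT library, PPP1R1B had 1 count in all and ATG9B had 13. The other side of each comparison with NeoT did enter the choice, and ATG9B and CDH19 passed the filter through CA1, so the folds below are given without a test.

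In NeoT against A10, PRSS21 was at least 190-fold lower, MYEF2 at least 127-fold lower and LZTS1 at least 44.1-fold lower. ATG9B was at least 6.29-fold higher, on 13 counts in NeoT against 0 in A10. PPP1R1B and CDH19 were under the floor in both lines, and RNF212 was at 0 in both. The 7 genes thus took different courses at this step: 3 lost all counts, and the other 4 were at or near 0 in both lines.

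In T1 against NeoT, PPP1R1B had a ratio of pooled counts of 157 (95% exact counting interval 27.8 to 6213). RNF212 was at least 53.9-fold higher. CDH19 was at least 6.52-fold higher, on 26 counts of which 18 came from T1 replicate 3. ATG9B had a ratio of 1.44 with overlapping ranges, and PRSS21, MYEF2 and LZTS1 were at 0 in both lines.

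In CA1 against NeoT, PPP1R1B had a ratio of pooled counts of 6865 (95% exact counting interval 1232 to 271197) and ATG9B was 89.8-fold higher by mean CPM. CDH19 was at least 625-fold higher, PRSS21 at least 484-fold, RNF212 at least 348-fold, and MYEF2 and LZTS1 at least 223-fold each. The choice of genes expressed in CA1 favours high folds in this comparison. Over the whole table, edgeR's quasi-likelihood test called 33.8% of the 14417 tested genes higher in CA1 against NeoT, 35.0% higher in T1 against NeoT, and 33.7% higher and 36.7% lower in NeoT against A10.

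Rows with such profiles were counted over the whole table, with limits set after the values were seen. The patterns use values that also chose the members, so the members found among them are no test. ATG9B, with 13 counts in NeoT and 0 in A10, had neither pattern. Of 12197 rows with a CA1 mean of at least 1 CPM, 4 (0.0328%) had 0 counts in all NeoT and T1 libraries and at least 1 CPM in A10: PRSS21, MYEF2, LZTS1 and APOBEC3F, a cytidine deaminase gene of antiviral defence. Removing the condition on T1 left 65 rows with NeoT at 0. With both levels at 5 CPM the pattern had 3 rows, without LZTS1, and at 10 CPM it had none, since the A10 means of the 3 members lie under 10 CPM. The other pattern, 3 counts or fewer over A10 and over NeoT, had 46 of the 12197 rows (0.377%) at a CA1 mean of at least 1 CPM, 9 of 10203 (0.0882%) at 5 CPM and 7 of 8907 (0.0786%) at 10 CPM. At 5 CPM, besides PPP1R1B, RNF212 and CDH19 these were C6orf223, CCDC129, CEACAM5, GRHL2, LOXL4 and SEMA3D.

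The genes most like each of the 7 were ranked by Pearson's r of log2 CPM over the 12 libraries, a description without a test since the libraries fall into lines. APOBEC3F ranked first for PRSS21 (r = 0.9997), MYEF2 (0.9984) and LZTS1 (0.9908). It averaged 9.52 ± 0.964 CPM in A10, had 0 counts in all 6 NeoT and T1 libraries and averaged 27.1 ± 1.08 CPM in CA1 (SD, n = 3 each). SERPINA1, which encodes alpha-1 antitrypsin, followed for PRSS21 (r = 0.9923) and MYEF2 (0.9954), without reaching 0: it averaged 192 ± 1.77 CPM in A10, 31.4 ± 2.59 in NeoT, 34.7 ± 0.325 in T1, with 198 ± 4.68 in CA1. PPP2R5A and NTN1 followed for LZTS1 (0.9856 each).

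For the genes gained relative to A10, the closest profiles included several with a high base level. PPP1R1B was most like KRT18 (r = 0.9985), a simple epithelial keratin at 350 ± 16.9 CPM in A10, 329 ± 14.3 in NeoT, 981 ± 22.0 in T1, with 3188 ± 151 in CA1, then SMURF1 (0.998) and C6orf223 (0.9977). C6orf223 alone of these 3 also stood near 0 in A10 and NeoT, with 1.53 ± 0.160 CPM in T1 and 76.7 ± 6.27 in CA1. RNF212 was followed by LOC729966 (0.9982), ANXA1 (0.9971) and CCDC129 (0.9962), CDH19 by KIAA1147 (0.9958), LOC255187 (0.9921) and SCD (0.9893), and ATG9B by CAPS (0.9826), VAMP2 (0.9814) and DAP (0.9813). SCD, the stearoyl-CoA desaturase gene, averaged 1267 ± 34.9 CPM in A10, 2262 ± 14.3 in T1 and 12274 ± 152 in CA1.

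The genes lie on 7 different chromosomes. On GRCh38.p14 they are PPP1R1B at chr17:39626707-39636624 on the plus strand, ATG9B at chr7:151012209-151024499 on the minus strand, RNF212 at chr4:1056251-1113710 on the minus strand, CDH19 at chr18:66501083-66604090 on the minus strand, PRSS21 at chr16:2817237-2821719 on the plus strand, MYEF2 at chr15:48134632-48178295 on the minus strand and LZTS1 at chr8:20246165-20303963 on the minus strand.

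Position was not used in the choice, and the 97 tested genes within 500 kb of the 7 were called in both directions. In CA1 against A10, 35 of them (36.1%) were called higher and 32 (33.0%) lower, where 34.4% and 36.5% of all tested genes were, and their median log2 fold change was -0.01 against -0.02 for all genes. In CA1 against T1, 24 (24.7%) were higher and 30 (30.9%) lower, where 30.4% and 31.9% of all tested genes were, with medians of -0.13 and -0.01. Within 250 kb the median in CA1 against A10 was 0.17.

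Some single neighbours were higher in CA1 as well. NOS3, the endothelial nitric oxide synthase gene, lies on the plus strand and shares 2380 bases with ATG9B on the minus strand. It averaged 12.3 ± 1.16 CPM in CA1 and 0.0419 ± 0.0726 CPM in A10 (log2 fold change 7.72, adjusted p = 1.81e-09), and 1.49 ± 0.504 CPM in T1 (log2 fold change of CA1 over T1 3.04, adjusted p = 2.86e-06). In A10 the NOS3 libraries had 0.126, 0 and 0 CPM, so that both genes were near 0 there. Nothing in the sources used here says that counting used strand, so reads from ATG9B and NOS3 in the shared bases cannot be told apart. ABCB8, the nearest tested gene on the other side of ATG9B at 4.0 kb, was lower in CA1 than in A10 (24.1 against 45.5 CPM, log2 fold change -0.91, adjusted p = 4.49e-07).

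PPP1R1B lies beside the ERBB2 gene cluster. STARD3, a cholesterol transfer gene 0.5 kb away, averaged 46.8 ± 2.57 CPM in CA1 and 28 ± 1.93 CPM in A10 (log2 fold change 0.74, adjusted p = 1.28e-06). GRB7, an adaptor of receptor tyrosine kinases 101.3 kb away, averaged 154 ± 3.74 CPM in CA1 and 16.7 ± 0.839 CPM in A10 (log2 fold change 3.20, adjusted p = 3.36e-15), and 28.7 ± 2.68 CPM in T1 (2.42, adjusted p = 2.43e-13). ERBB2 itself, a growth factor receptor gene 51.5 kb away, averaged 202 ± 11.1 CPM in CA1 and 77.8 ± 3.93 CPM in A10 (log2 fold change 1.37, adjusted p = 5.86e-12). In T1 ERBB2 stood at 200 ± 10.4 CPM (CA1 over T1 log2 fold change 0.01, adjusted p = 0.882). PPP1R1B differed 44.3-fold between CA1 and T1, and a shared cause was not tested. CDK12, the nearest tested gene on the other side, was lower in CA1 than in A10 (61.9 against 73.5 CPM, adjusted p = 0.00818). The other neighbours called lower in both CA1 comparisons, which share the CA1 libraries, were GSDMA, MED24, ORMDL3 and THRA, and the others called higher in both were GSDMB, MIEN1 and NR1D1. Around ATG9B, ASIC3 and RHEB were higher in both, and ABCF2, SLC4A2 and SMARCD3 lower.

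PRSS21 lies among other serine protease genes. PRSS22, 31.0 kb away, averaged 0.887 ± 0.629 CPM in A10, 28.9 ± 2.83 in T1 and 151 ± 16.2 in CA1 (CA1 over A10 log2 fold change 7.49, adjusted p = 1.42e-09; CA1 over T1 2.39, adjusted p = 2.38e-06). PRSS27 averaged 2.94 ± 0.509 CPM in CA1 and 0.419 ± 0.247 CPM in A10 (2.84, adjusted p = 2.20e-05). PRSS33, the nearest tested gene on one side at 29.3 kb, had 0 counts in A10 and NeoT, 0.602 ± 0.470 CPM in T1 and 0.504 ± 0.0726 in CA1, and ZG16B on the other side was at 5.98 CPM in CA1 and 4.91 in T1 (adjusted p = 0.252). In T1, where PRSS21 had no count, PRSS22, PRSS27, PRSS33 and ZG16B were all present, and the 0 of PRSS21 in T1 was not shared by these neighbours. In NeoT, where PRSS21 also had no count, PRSS33 had none either and PRSS22 averaged 0.115 ± 0.199 CPM, on 8 counts. PRSS27 and ZG16B averaged 2.02 and 5.21 CPM in NeoT. Of the further neighbours, ABCA3, CLDN9, HCFC1R1, LINC00514, LOC652276 and TNFRSF12A were called higher in both CA1 comparisons, and C16orf59, CCNF, CEMP1, PKMYT1 and TBC1D24 lower.

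Around the other 4 genes, calls near RNF212 went both ways, and few or no genes were tested near CDH19, MYEF2 and LZTS1. FGFRL1, 29.4 kb from RNF212, was higher in CA1 than in A10 (log2 fold change 2.39, adjusted p = 2.60e-14), and CTBP1-AS on the other side was not called (adjusted p = 0.419). TMEM175 and UVSSA were also higher in both CA1 comparisons, and ATP5I, CPLX1, DGKQ, IDUA, MAEA and PCGF3 lower. No tested gene lay within 500 kb of CDH19; DSEL at 902.5 kb and SERPINB8 at 2481.3 kb were both lower in CA1. DSEL averaged 0.0659 ± 0.0404 CPM in CA1 and 18.6 ± 2.72 CPM in A10 (log2 fold change -8.13, adjusted p = 2.58e-12). DUT and FBN1, the tested genes near MYEF2, were lower in CA1 than in A10 and T1, and in NeoT, where MYEF2 was at 0, FBN1 stood at 118 CPM against 17.2 CPM in A10. SLC24A5, CTXN2 and SLC12A1, which overlap MYEF2 on the opposite strand, had at most 0.0168 CPM in any line. ATP6V1B2, 24.5 kb from LZTS1, was at 101 CPM in CA1 and 88.1 CPM in A10 (log2 fold change 0.20, adjusted p = 0.0085), and the overlapping antisense gene LZTS1-AS1 had no count. The nearest tested genes on the far sides, SQRDL at 2443.4 kb from MYEF2 and XPO7 at 1615.7 kb from LZTS1, were higher in CA1 than in A10 (log2 fold changes 0.49 and 0.33, adjusted p = 1.65e-06 and 0.00284).

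**Figure D3:**
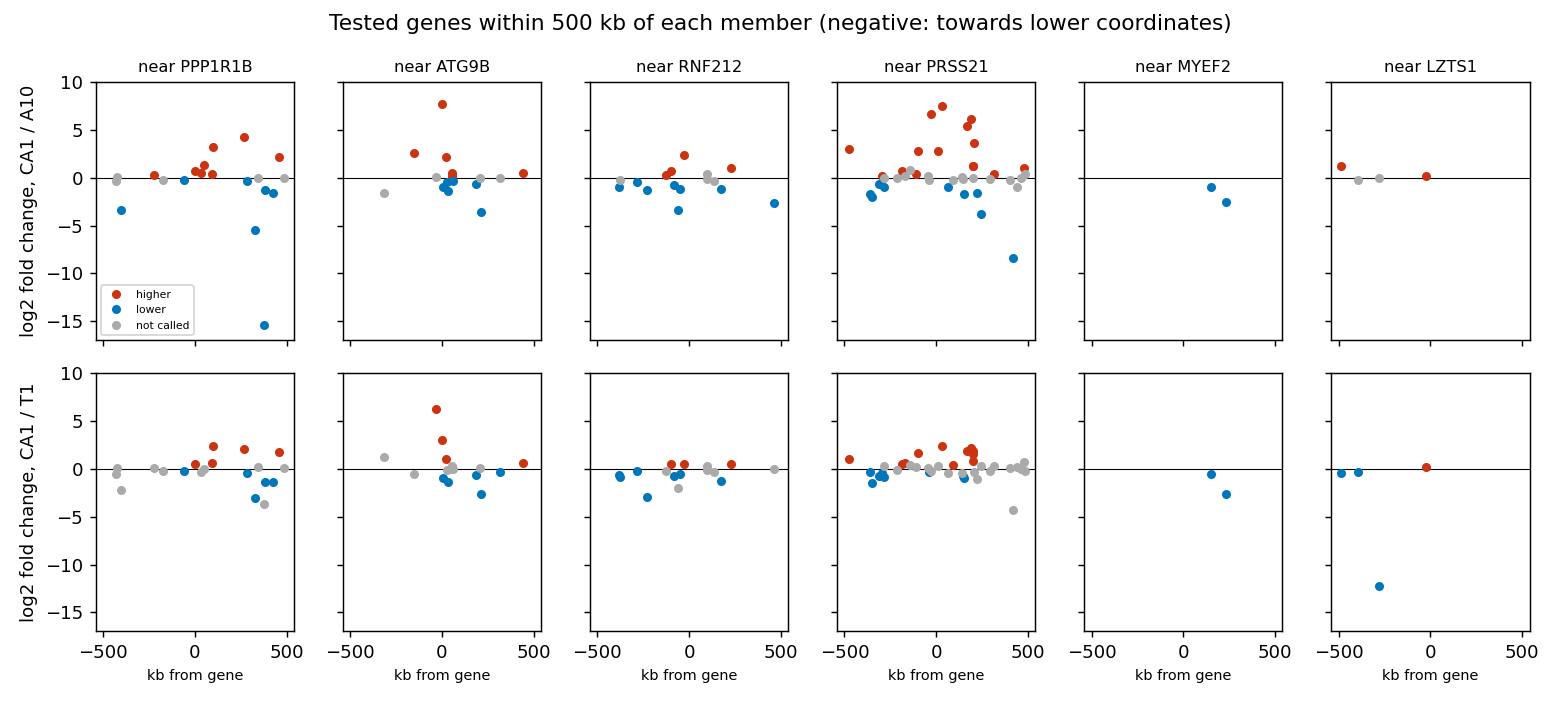
Log2 fold change of each tested gene within 500 kb of 6 of the 7 genes, by its distance in kb from the member's body, for CA1 over A10 above and CA1 over T1 below. Red points are called higher, blue lower and grey not called; calls in both directions surround PPP1R1B, ATG9B, RNF212 and PRSS21, and CDH19 has no tested gene in the window.

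**Figure D4:**
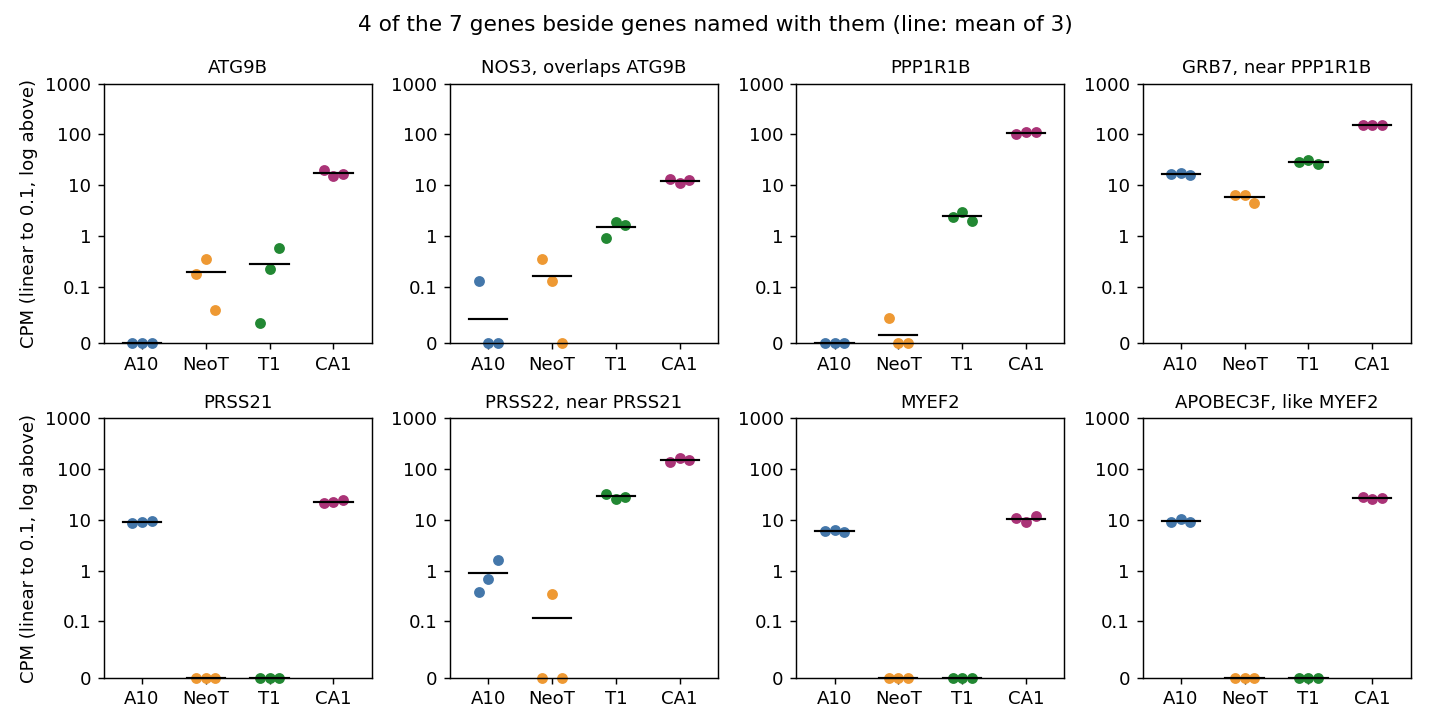
CPM in the 12 libraries of ATG9B, PPP1R1B, PRSS21 and MYEF2, each beside a gene named with it, on an axis that is linear up to 0.1 and logarithmic above, with a bar at the mean of 3. NOS3 and PRSS22 are near 0 in NeoT and high in CA1, GRB7 is present in every line, and APOBEC3F shares the 0 counts of MYEF2 in NeoT and T1.

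The lists around the 7 genes went in different directions. Their counts in CA1 against A10 stand beside 34.4% of all tested genes higher and 36.5% lower. Of 14 tested regulators and catalytic subunits of protein phosphatase 1, 3 were higher and 6 lower in CA1 than in A10, with a median log2 fold change of -0.23, against -0.02 over all genes. PPP1R9A, a neuronal targeting subunit, rose (3.69, adjusted p = 4.05e-12), as did the inhibitor PPP1R2 (1.2, adjusted p = 5.16e-09) and the catalytic gene PPP1CC (0.70, adjusted p = 1.33e-06), while PPP1CA fell by 0.44 (adjusted p = 9.98e-06). PPP1R1A, the closest relative of PPP1R1B, had no count in any library. Of 27 genes of cAMP and protein kinase A signalling, which acts on the PPP1R1B protein, 7 were higher and 11 lower (median -0.22). The kinase inhibitor gene PKIB rose (2.40, adjusted p = 1.59e-12) and the regulatory subunit gene PRKAR1B fell by 1.36 (adjusted p = 6.42e-09).

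Of 29 core autophagy genes, 14 (48.3%) were higher and 5 (17.2%) lower in CA1 than in A10 (median 0.14), where 34.4% and 36.5% of all tested genes were. SQSTM1, an autophagy receptor, rose (1.03, adjusted p = 1.97e-11) to 1220 CPM, and WIPI1 rose (1.93, adjusted p = 1.26e-11) to 32.3 CPM. Both averaged more in NeoT than in CA1, at 1801 and 51.3 CPM. In NeoT against A10, 14 of the 29 were also higher and 7 lower, where 33.7% and 36.7% of all tested genes were. ATG9A, the paralog of ATG9B, was present in every line, at 90.0 ± 6.12 CPM in A10, 155 ± 2.82 in NeoT, 85.1 ± 6.24 in T1, with 109 ± 2.59 in CA1; its CA1 over A10 log2 fold change was 0.28 (adjusted p = 0.00176). The highest ATG9A level was in NeoT, where ATG9B had 13 counts.

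Meiotic genes divided. Of 28 listed, 26 had a row and 10 were tested; 6 of them were higher and 2 lower in CA1 than in A10, with a median of 1.36, and the counts were the same for CA1 against T1. SYCP2, a synaptonemal complex protein gene, averaged 0.526 ± 0.322 CPM in A10, 2.28 ± 0.549 in NeoT, 2.32 ± 0.575 in T1, with 75.7 ± 7.40 in CA1 (CA1 over A10 log2 fold change 7.19, adjusted p = 1.86e-14). CCNB1IP1, whose product works with RNF212 in mouse meiosis, rose (1.82, adjusted p = 1.30e-13), and was also high in NeoT at 180.0 ± 16.7 CPM. PSMC3IP fell by 2.50 (adjusted p = 4.57e-07) and MND1 by 1.34 (adjusted p = 2.51e-06). In CA1, 12 of the 26 rows were at 0, including SPO11, DMC1, SYCP1, SYCP3 and HORMAD1.

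Of 12 other type II cadherins, 4 were tested and 1 was lower in CA1 than in A10 (CDH24, fell by 0.41, adjusted p = 0.0495). In CA1 the summed level of the 12 was 6.08 to 7.73 CPM, 4 were at 0 and CDH24 stood at 4.09 CPM. Of 16 Schwann cell and neural crest markers 8 were tested, and 4 were higher and 2 lower in CA1 than in A10. NGFR, a neurotrophin receptor gene also made by basal mammary cells, averaged 167 ± 5.55 CPM in CA1 and 16.3 ± 2.35 CPM in A10 (3.37, adjusted p = 4.16e-11), and ERBB3 rose (2.81, adjusted p = 2.49e-13). The 2 called lower were L1CAM and TFAP2A. L1CAM averaged 9.49 CPM in CA1 and 31.7 CPM in A10 (-1.73, adjusted p = 6.79e-10), and TFAP2A fell by 0.38 (adjusted p = 8.01e-05). SOX10 and SOX2 had no count in CA1, and S100B stood at 0.476 CPM. MBP, which MYEF2 represses in mouse, averaged 66.0 ± 2.23 CPM in A10, 18 ± 2.45 in NeoT, 78.3 ± 3.14 in T1, with 67.9 ± 4.77 in CA1, and was not called in CA1 against A10 (log2 fold change 0.04, adjusted p = 0.688).

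A list of serine proteases, not all of them membrane-anchored, with protease inhibitors and the receptor gene F2RL1, was mostly higher in CA1. Of 14 tested, 11 (78.6%) were higher and 1 (7.14%) lower in CA1 than in A10, where 34.4% and 36.5% of all tested genes were, with a median log2 fold change of 2.50. In CA1 against T1, 7 were higher and 2 lower (median 0.22), where 30.4% and 31.9% of all tested genes were. TMPRSS4 rose (5.61, adjusted p = 1.28e-16) to 121 ± 3.57 CPM, PRSS23 rose (4.05, adjusted p = 2.37e-15), PRSS8 (prostasin) rose (2.34, adjusted p = 4.87e-14) and TMPRSS13 rose (8.31, adjusted p = 3.27e-13). In NeoT against A10, 10 of the 14 were lower and 3 higher (median -2.80), where 36.7% and 33.7% of all tested genes were. In T1, where PRSS21 had no count, the list summed to 2113 to 2207 CPM. Much of that sum came from the inhibitor genes SPINT2 and SPINT1, at 962 and 403 CPM, and from ST14, at 420 CPM.

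Of 12 tested nucleic-acid binding relatives of MYEF2 and myelin gene regulators, 1 was higher and 5 lower in CA1 than in A10. HNRNPM, the closest relative, averaged 87.8 ± 4.56 CPM in CA1 and 288 ± 13.1 CPM in A10 (fell by 1.71, adjusted p = 9.84e-13), and stood at 57.0 ± 6.30 CPM in NeoT and 203 ± 13.0 in T1. Of 12 tested relatives and partners of LZTS1, 4 were higher and 6 lower. LZTS2 averaged 93.0 ± 9.20 CPM in CA1 and 39.9 ± 3.87 in A10 (1.22, adjusted p = 2.10e-08) and LZTS3 2.96 ± 0.586 CPM in CA1 and 5.62 ± 1.28 in A10 (fell by 0.93, adjusted p = 0.0169). Both were present in NeoT and T1, where LZTS1 had no count. DLC1 rose (2.21, adjusted p = 6.52e-12).

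Markers of other cell types were mixed. The 23 germ cell and cancer-testis genes with a row summed to 0.251 to 0.788 CPM in CA1, and 20 of them had no count there, although PRSS21 and RNF212 are known from germ cells. Leukocyte markers summed to 71.8 to 75.9 CPM in A10, 204 to 220 in NeoT, 95.0 to 104 in T1, and 102 to 106 in CA1, with PTPRC and CD3E at 0 in every library. Of 4 tested leukocyte markers, 1 was higher and 2 lower in CA1 than in A10, beside 34.4% and 36.5% of all tested genes. CD68, a macrophage marker also made by other cells, was at 83.3 CPM in CA1 and 8.27 CPM in A10 (log2 fold change 3.33, adjusted p = 5.41e-16). CD14 was at 19.4 CPM in CA1 and 64.1 CPM in A10 (-1.72, adjusted p = 1.47e-12), and CD74 fell by 4.26 (adjusted p = 4.74e-04). Endothelial markers summed to 7.31 to 10.3 CPM in A10, 2.59 to 3.62 in NeoT, 82.8 to 89.7 in T1, and 23.3 to 25 in CA1, with VWF at 0.0576 CPM and KDR and CLDN5 at 0 in CA1. PECAM1 was at 24.0 CPM in CA1 and 2.09 CPM in A10 (log2 fold change 3.54, adjusted p = 3.46e-13), and at 85.6 CPM in T1. The part of these markers in the levels of the 7 genes and of NOS3 was not tested. Stromal fibroblast markers summed to 228 to 238 CPM in A10, 625 to 698 in NeoT, 52.6 to 55.3 in T1, and 12.7 to 14.4 in CA1, and 6 of 9, DCN among them, had no count in CA1.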

How the data were processed

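Gene values were deposited as estimated counts, also called expected counts, made by Salmon as its name says and not scaled between libraries; per the submitters' processing notes the build was GRCh38 and limma was used in a role not given. Per the labels' protocols, DNase-treated total RNA went into libraries of the NEBNext Ultra RNA kit. Versions, annotation and strand setting are not given in the sources used here. Of the values, 10.1% were not whole; they were rounded to whole counts. Totals per library ran from 18032404 to 35730417.

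Genes were filtered with filterByExpr (14417 of 29744 left), scaled with TMM and fitted with edgeR 4.0.16 (R 4.3.3; quasi-likelihood, robust, a mean per line over all 12 libraries). Tests were two-sided, with Benjamini-Hochberg adjustment over all tested genes and calls at an adjusted p under 0.05. Folds of the members are ratios of mean CPM, bounds against 3 counts over a line, or, with 1 to 3 counts, ratios of pooled counts with exact 95% intervals. Likeness was taken on log2 CPM (prior count 2). The fit was tested on simulated counts.

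The members and the 15 gene lists (239 entries) were chosen with earlier results of these data known. Named genes were the members; the 3 most alike per member; up to 4 per list with the smallest adjusted p, with the closest paralogs; and the nearest tested gene on each side and neighbours called alike in both CA1 comparisons. Others, singled out after their values were seen, were ERBB2, F2RL1, NOS3 by strand overlap, the markers at or near 0, and genes sharing a count profile. KRT17, KRT19, ITGA6 and LAMB3 were among them. A few genes these rules name are not reported here. Positions are RefSeq's on GRCh38.p14, with 23104 rows found through their symbol and 1781 through a synonym; strands and overlaps are GENCODE's. Alternatives were RLE and upper-quartile scaling, other filters, DESeq2 1.42.0, limma-voom 3.58.1, fits to the libraries compared, a replicate block, each library left out, 2 libraries left out together, no rRNA rows, library totals in place of TMM, and windows of 250 and 1000 kb. Tables and plots were made in Python 3.11.15 with matplotlib 3.10.9, scipy 1.17.1, numpy 2.4.6 and pandas 2.3.3.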

Additional observations from a re-analysis of the deposited data

How the results depend on the processing

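Over 10 alternative settings and 12 that left out 1 library, the log2 fold change of ATG9B in T1 against NeoT (0.37 as fitted) turned to -0.01 with limma-voom and to -0.59 without T1 replicate 3 (range with 1 library left out -0.59 to 1.07), and its order between these lines is not set. With only the 6 libraries compared, ATG9B and CDH19 in NeoT against A10 and in T1 against NeoT, and PPP1R1B in NeoT against A10, had too few counts to be fitted. Genes called ranged from 9434 to 10367 in NeoT against A10, 8892 to 10019 in T1 against NeoT, 8924 to 9932 in CA1 against NeoT, 9670 to 10856 in CA1 against A10 and 8185 to 9773 in CA1 against T1. With library totals in place of TMM, PRSS21 stood at 9.98 and MYEF2 at 6.60 CPM in A10. The neighbours' median log2 fold change was 0.17 in CA1 against A10 within 250 kb, and 0.02 within 250 kb and -0.06 within 1000 kb in CA1 against T1. Replicate numbers did not pair the libraries: deviations of same-numbered libraries correlated at -0.069 to 0.088 over 18 pairs, and 16 of 36 comparisons correlated best with their own number. With the replicate number as a block, 9981 genes were called in NeoT against A10, 9541 in T1 against NeoT, 9443 in CA1 against NeoT, 10059 in CA1 against A10 and 8799 in CA1 against T1. Depth limits the traces of ATG9B, CDH19 and PPP1R1B outside CA1.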

Other observations

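The keratins of the mammary epithelium differed between CA1 and A10, in a marker list not described above gene by gene. KRT5 and KRT14, keratins of basal cells, averaged 271 and 3.33 CPM in CA1, against 3347 and 451 CPM in A10 (edgeR log2 fold changes -3.63 and -7.08, adjusted p = 1.45e-17 and 1.87e-18). KRT8 and KRT18, keratins of luminal cells, averaged 3699 and 3188 CPM in CA1, against 147 and 350 CPM in A10 (4.65 and 3.19, adjusted p = 4.60e-18 and 8.25e-18). The epithelial adhesion gene EPCAM averaged 395 CPM in CA1 and 41.7 CPM in A10 (3.24, adjusted p = 2.36e-17). Of the 12 genes of this list, 6 were called higher and 4 lower in CA1 than in A10. The keratin KRT17 fell less than KRT5 and KRT14, to 938 CPM in CA1 from 1177 CPM in A10 (-0.33, adjusted p = 0.00177). ITGA6 and LAMB3 averaged 1481 and 4108 CPM in CA1, against 646 and 1189 CPM in A10 (1.2 and 1.79). The keratin KRT19 averaged 2.26 CPM in CA1 and 0.321 CPM in A10 (2.74, adjusted p = 1.22e-04).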
